A study of Mus musculus with 30 samples.

Results

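The transcripts described here belong to 35 genes of macrophages and of antigen presentation through MHC class II. They were taken from a fixed list of names: 16 surface proteins and receptors, 4 adaptor and signalling proteins, 9 lysosomal or effector proteins, 2 transcription factors and 4 MHC class II genes. All 35 were found among the 19468 genes of the kidney table and the 19685 genes of the pancreas table, with Spi1 listed under its older symbol Sfpi1. Macrophages are phagocytes that take up dying cells and microbes, digest them in lysosomes and sense them through Fc receptors, scavenger receptors and lectins. Their identity depends on the growth factor receptor Csf1r and the transcription factor Spi1 (PU.1). MHC class II molecules, which B cells and dendritic cells also carry, hold peptides from the lysosome on the cell surface for CD4+ T cells. Kidney and pancreas both hold resident macrophages.

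The study sequenced poly(A) RNA of C57BL/6 mouse kidney and pancreas after reprogramming factors were induced in the animal. The i4F mice carry a cassette from which doxycycline induces Oct4 (gene Pou5f1), Sox2, Klf4 and Myc. All groups, controls included, drank doxycycline at 0.2 mg/ml over 7 days. Each tissue had 5 libraries from i4F mice, 5 from i4F mice without the Ink4a/Arf locus (i4F Ink4a/Arf KO), and 5 labelled as knockouts of p53, which makes 30 libraries in 6 groups. The last label reads i4F p53 KO in kidney and p53 KO, with i4F not named, in pancreas. No group without doxycycline was analysed here, and age, sex, the promoter that drives the cassette and how each deletion was made are not given in the sources used here. Levels are FPKM, fragments scaled to transcript length and library size, so they can be compared between genes of a library. The labels state over 24 M mapped reads per sample, and how many reads stand behind any 1 gene is unknown.

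Promoters of 27 of the 35 genes, 31 promoters in all, were found in RefSeq (GRCm38.p6), each from 250 bases before to 50 bases after a start site. The first pair below is shown because transcripts of the class II genes H2-Aa and H2-Eb1 moved against the macrophage genes in 1 pancreas comparison. This was the group labelled p53 KO against i4F, after the scaling described below. As deposited these class II genes did not pass there. Capitals mark the Y box core ATTGG, searched on both strands (CCAAT is the same site on the other strand), and in H2-Eb1 also the X box, both elements of class II promoters.
H2-Aa (chr17:34287774-34288073, minus strand): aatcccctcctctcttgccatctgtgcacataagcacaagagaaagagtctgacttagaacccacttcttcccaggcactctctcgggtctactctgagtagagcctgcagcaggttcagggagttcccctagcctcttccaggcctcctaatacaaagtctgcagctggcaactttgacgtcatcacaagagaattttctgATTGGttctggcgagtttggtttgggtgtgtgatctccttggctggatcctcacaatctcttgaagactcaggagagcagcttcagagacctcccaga
H2-Eb1 (chr17:34305617-34305916, plus strand): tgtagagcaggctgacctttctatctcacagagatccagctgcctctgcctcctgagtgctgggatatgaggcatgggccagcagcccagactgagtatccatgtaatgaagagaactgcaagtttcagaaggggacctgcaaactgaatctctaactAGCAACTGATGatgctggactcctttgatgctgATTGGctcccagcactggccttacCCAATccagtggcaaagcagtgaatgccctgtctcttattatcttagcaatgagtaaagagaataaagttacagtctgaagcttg
The Y box core began at position -48 from the start site in H2-Aa and at -59 in H2-Eb1, where the X box began at -92. The core is a common word: 37.4% of all 32851 promoters of the same length held it, as did 16 of the 31 promoters of these genes. The X box was searched only as 1 fixed pattern of 11 letters, which was in 0.968% of all promoters. Among the 31 only H2-Eb1 held this pattern. Variants of the X box were not searched, so its presence in H2-Aa or the other promoters is left undecided. In H2-Eb1 the X box and the Y box cores did not overlap.

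The next 3 promoters belong to effector genes of the phagolysosome that were among the 6 most abundant of the 35 in the pancreas labelled p53 KO. Capitals mark the word AGGAAGT, searched as a PU.1 site on both strands, which stands here as ACTTCCT on the other strand. Binding of PU.1 was not measured.
Lyz1 (chr10:117292819-117293118, minus strand): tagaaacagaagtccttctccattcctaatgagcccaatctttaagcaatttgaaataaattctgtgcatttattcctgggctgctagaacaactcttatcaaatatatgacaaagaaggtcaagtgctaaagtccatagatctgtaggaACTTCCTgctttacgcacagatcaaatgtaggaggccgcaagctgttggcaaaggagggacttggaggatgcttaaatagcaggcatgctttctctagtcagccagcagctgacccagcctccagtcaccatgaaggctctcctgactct
Lyz2 (chr10:117282223-117282522, minus strand): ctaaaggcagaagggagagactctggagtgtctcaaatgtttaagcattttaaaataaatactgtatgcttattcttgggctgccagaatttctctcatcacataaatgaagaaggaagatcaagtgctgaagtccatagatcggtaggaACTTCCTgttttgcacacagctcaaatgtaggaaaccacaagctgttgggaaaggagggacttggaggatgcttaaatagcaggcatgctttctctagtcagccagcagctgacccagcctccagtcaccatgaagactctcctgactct
Ctss (chr3:95526536-95526835, plus strand): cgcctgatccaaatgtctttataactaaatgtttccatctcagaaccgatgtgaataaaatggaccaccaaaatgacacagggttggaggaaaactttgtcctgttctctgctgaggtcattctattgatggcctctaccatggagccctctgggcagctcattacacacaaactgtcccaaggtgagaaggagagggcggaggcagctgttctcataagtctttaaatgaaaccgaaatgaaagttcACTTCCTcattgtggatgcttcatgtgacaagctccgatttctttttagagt
Both lysozyme promoters held the word at position -100, and in Ctss it spanned the start site. AGGAAGT or its complement was in 9.35% of all promoters and in 6 of the 31 (Ctss, Fcgr1, Lyz1, Lyz2, Mrc1 and Ms4a6c). Another word searched as a PU.1 site, GAGGAAG, was in 13.6% of all promoters and in 9 of the 31. Without gaps, 201 of the 300 bases of both lysozyme promoters were identical (67%). The transcripts also share sequence: 16.1% of the 50-base windows of Lyz1 occur in Lyz2, so the split of reads between this pair is uncertain.

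Some libraries stood apart. In pancreas i4F replicate 4 all 35 genes had their highest level of the 5 i4F libraries as deposited (34 after scaling), and B cell markers were high there: Cd79a was at 34.01 FPKM against at most 0.388 in the other i4F libraries. Kidney i4F Ink4a/Arf KO replicate 1 held the highest level of all 15 kidney libraries for 30 of the 35 genes. Xist, transcribed from the inactive X chromosome of females, was at 4.51 FPKM or more in 4 pancreas libraries (i4F replicates 3, 4 and 5, and replicate 1 of i4F Ink4a/Arf KO), and at most 0.856 in those labelled p53 KO. Trp53 was at 4.90 to 10.1 FPKM in kidney i4F p53 KO against 14.8 to 20.3 in i4F (log2 change -1.14, limma adjusted p = 0.0055). In the pancreas Trp53 was at 6.65 to 24.8 FPKM in the libraries labelled p53 KO and at 1.64 to 6.99 in i4F, so its RNA was not lower there. After scaling the pancreas difference was 0.17 (adjusted p = 0.33). Pou5f1, of the cassette, reached 24.6 to 98.2 FPKM in the pancreas labelled p53 KO, against 0 to 1.14 in i4F. The acinar marker Clps was lower in these libraries, at 121 to 41700 FPKM against 60495 to 78363 in i4F. Because FPKM are shares of a library, values are also given scaled: each library was divided by the median, over genes, of its ratio to the mean level in its tissue (a geometric mean). The divisors were 1.31 to 3.93 in the pancreas libraries labelled p53 KO, 0.463 to 1.003 in the other 10, and 0.891 to 1.16 in kidney. Every difference below is on the log2(FPKM + 1) scale, which makes changes of genes near 1 FPKM look smaller than they are.

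In the pancreas labelled p53 KO most macrophage genes were higher than in i4F pancreas, and after scaling the 4 class II genes were lower. The galectin Lgals3 and the cathepsin Ctss led, with scaled differences of 3.17 and 2.998 on the log2 scale, while H2-Aa differed by -1.53. Of the 35 genes, 19 reached 1 FPKM in at least 5 of the 10 libraries of the other genotypes. All 15 macrophage genes among these rose after scaling, and the 4 class II genes fell. Among the 10781 genes tested in this comparison 66.0% passed limma's test after scaling, 34.9% higher and 31.2% lower. Among the 7733 genes that reached 1 FPKM in 5 libraries outside the group labelled p53 KO, 26.3% rose and 40.2% fell, with a median of -0.13. The median of the 19 was 1.91. For 14 of the 35 genes all 5 scaled libraries labelled p53 KO lay above all 5 of i4F, as for 24.2% of the 10781 genes tested. Both counts include genes that reached the filter only through the group labelled p53 KO. Before scaling, 93.4% of all genes tested passed, 91.2% higher and 2.25% lower, so a rise as deposited says little about these genes: the same 15 rose, and the class II genes did not pass in either direction. In such whole-organ RNA, fewer cells of a type and less RNA per cell cannot be told apart.

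**Figure D1:**
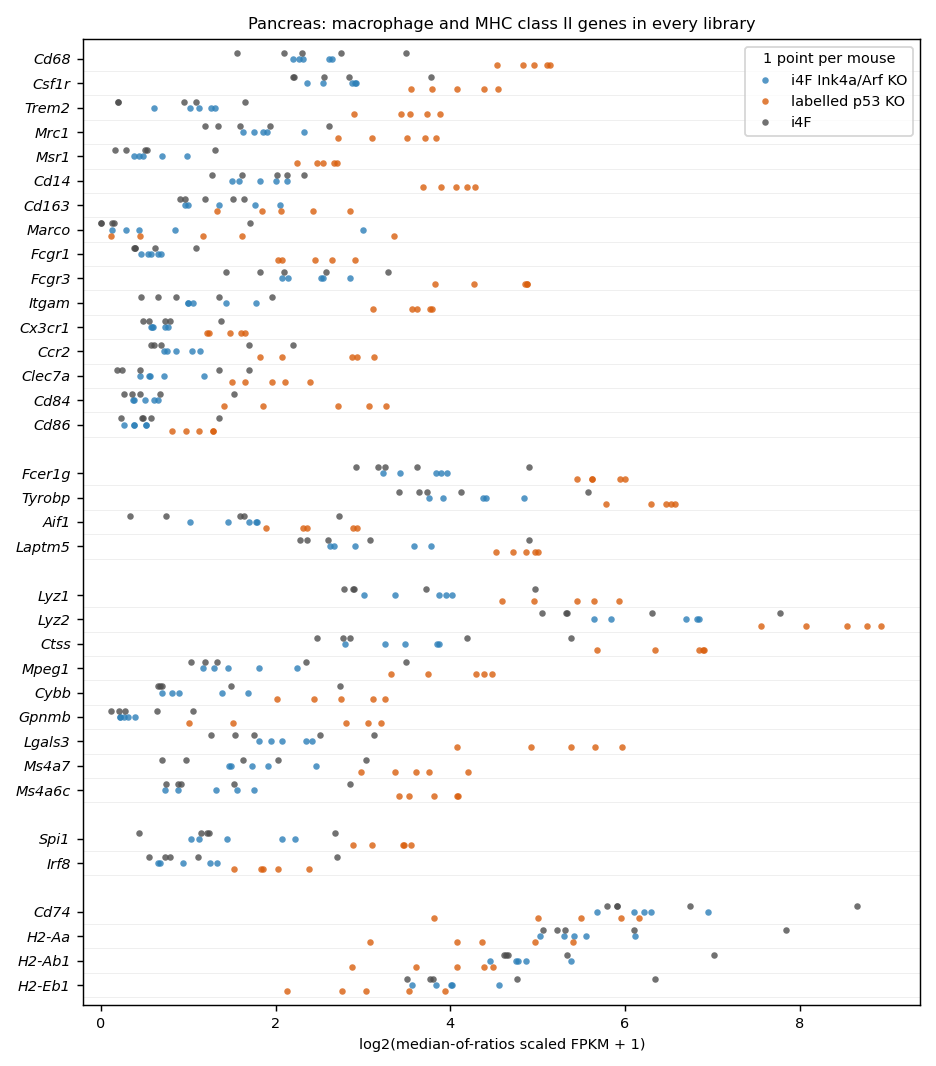
Scaled level of the 35 genes in the pancreas on the log2(FPKM + 1) axis, with 1 point for each of the 15 libraries, coloured by genotype and grouped by role. The points labelled p53 KO lie to the right for most macrophage genes and to the left or among the others for Cd74, H2-Aa, H2-Ab1 and H2-Eb1.

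Among the surface proteins, Cd68, a glycoprotein of the macrophage lysosome, was at 3.27, 1.93, 3.91, 10.3 and 5.73 scaled FPKM in i4F replicates 1 to 5. In replicates 1 to 5 labelled p53 KO it was at 30.2, 34.2, 33.4, 22.1 and 27.5. The groups did not overlap, and the highest i4F library was replicate 4. Cd68 rose by 2.48 (SE 0.27, limma adjusted p = 2.6e-06). Csf1r, the receptor for Csf1 and Il34 on which macrophages depend, was at 3.62, 3.59, 4.89, 12.8 and 6.16 scaled FPKM in i4F and at 19.98, 22.4, 15.8, 10.7 and 12.8 in the libraries labelled p53 KO. It rose by 1.35 (SE 0.27, limma adjusted p = 0.00053), and i4F replicate 4 lay within the range of the other group. Cd14, a co-receptor for bacterial lipopolysaccharide, rose by 2.15 (SE 0.19, limma adjusted p = 4.5e-07), from 1.41 to 4.03 scaled FPKM in i4F to 11.9 to 18.5. Fcgr3, an activating receptor for IgG, rose by 2.30 (SE 0.31), and Mrc1, the mannose receptor of tissue macrophages, by 1.64 (SE 0.26). Neither overlapped with i4F.

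The other 11 surface genes passed the filter on low levels only through the libraries labelled p53 KO, which favours a difference, so their values are given as a description. Trem2, a receptor for lipids and debris of dying cells, was at 0.146, 0.146, 1.13, 2.14 and 0.938 scaled FPKM in i4F and at 10.6, 12.3, 9.82, 6.43 and 13.7 in the libraries labelled p53 KO. All 5 of these lay above i4F. Itgam, the integrin subunit CD11b of myeloid cells, was at 7.68 to 12.9 against 0.378 to 2.89 in i4F. Msr1, a scavenger receptor for modified lipoproteins, was at 3.72 to 5.53 against 0.116 to 1.47, and Fcgr1, the high-affinity receptor for IgG, at 3.07 to 6.50 against 0.299 to 1.12. These 3 did not overlap with i4F either. Ccr2, the receptor for Ccl2 on monocytes, was at 2.52 to 7.74 against 0.483 to 3.598, where i4F replicate 4 overlapped. The fungal glucan receptor Clec7a was at 1.84 to 4.25 scaled FPKM against 0.133 to 2.24 in i4F. Cd84 of the SLAM family was at 1.65 to 8.59 against 0.199 to 1.87, and the fractalkine receptor Cx3cr1 at 1.32 to 2.14 against 0.397 to 1.59. Each of these overlapped with i4F replicate 4 as well. Cd86, a costimulatory ligand for T cells, was low in all groups, at 0.756 to 1.44 in the libraries labelled p53 KO and 0.176 to 1.55 in i4F, and its highest level was in i4F replicate 4.

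Cd163 and Marco, a pair of scavenger receptors of resident macrophages, overlapped between the groups. Cd163, which takes up haemoglobin bound to haptoglobin, was at 6.24, 4.39, 2.58, 3.18 and 1.52 scaled FPKM in the libraries labelled p53 KO and at 0.870 to 2.11 in i4F. Per FPKM of Cd68 in the same library, which no scaling touches, Cd163 was at 0.207, 0.128, 0.0773, 0.144 and 0.0552 in the libraries labelled p53 KO. This ratio was at 0.180 to 0.662 in i4F and 0.187 to 0.608 in i4F Ink4a/Arf KO, so replicate 1 labelled p53 KO overlapped the others. Marco was scattered, at 9.204, 2.05, 0.361, 0.0863 and 1.25 scaled FPKM in the libraries labelled p53 KO, at 7.001 in i4F Ink4a/Arf KO replicate 1 and at 2.27 in i4F replicate 4. The difference of 0.94 from i4F did not pass (SE 0.62, limma adjusted p = 0.19).

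All 4 adaptor and signalling genes reached the filter in the other genotypes and rose. Tyrobp (DAP12), the signalling partner of Trem2, was at 9.68, 11.5, 12.3, 46.8 and 16.5 scaled FPKM in i4F and at 87.3, 94.3, 77.5, 54.04 and 91.4 in the libraries labelled p53 KO. It rose by 2.23 (SE 0.34, limma adjusted p = 5.2e-05). Fcer1g, the common gamma chain of activating Fc receptors, rose by 2.15 (SE 0.29), from 6.56 to 28.8 scaled FPKM to 42.9 to 62.9. In both genes all 5 libraries lay above all of i4F, with i4F replicate 4 the nearest. The ratio of Fcer1g to Tyrobp was at 0.480 to 0.830 over all 15 pancreas libraries. Laptm5, a lysosomal membrane protein of blood cells, rose by 1.77 (SE 0.41, limma adjusted p = 0.0014), and Aif1 (IBA1), an actin-binding protein of macrophages, by 1.07 (SE 0.35, limma adjusted p = 0.015). Laptm5 overlapped with i4F replicate 4, which was at 28.9 against 22.1 to 31.2 in the libraries labelled p53 KO. Aif1 overlapped too, at 2.72 to 6.65 against 0.264 to 5.60.

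The lysosomal and effector genes included the largest differences of the 35. Ctss, the cysteine protease that trims the class II invariant chain, was at 5.83, 4.57, 6.23, 40.6 and 17.2 scaled FPKM in i4F and at 118, 119, 80.1, 50.3 and 114 in the libraries labelled p53 KO. All 5 lay above i4F, and Ctss rose by 2.998 (SE 0.47, limma adjusted p = 5.8e-05). Lgals3, a galectin secreted by macrophages and also by injured epithelium, was at 2.37, 1.39, 1.90, 7.71 and 4.69 in i4F and at 40.7, 49.5, 29.5, 15.9 and 61.4 in the libraries labelled p53 KO. The lowest of these, replicate 4, was above the highest i4F value, and Lgals3 rose by 3.17 (SE 0.36, limma adjusted p = 4.2e-06). Lyz2, the lysozyme of macrophages, was the most abundant of the 35 genes in the libraries labelled p53 KO, at 371, 436, 269, 188 and 489 scaled FPKM against 32.1, 39.4, 38.96, 217 and 78.4 in i4F. It rose by 2.42 (SE 0.46, limma adjusted p = 0.00034), with i4F replicate 4 above replicate 4 labelled p53 KO. Lyz1, which in the mouse gut belongs to Paneth cells, rose by 1.87 (SE 0.38). The Paneth cell markers had a summed level of at most 0.343 FPKM in any pancreas library. Lyz2 stood at 5.44 to 8.96 times Lyz1 in the 15 pancreas libraries. Ms4a7, a membrane protein of tissue macrophages, rose by 1.91 (SE 0.37), from 0.624 to 7.19 scaled FPKM to 6.88 to 17.4.

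Of the effector genes, 4 passed the filter only through the libraries labelled p53 KO. Gpnmb, a glycoprotein of lipid-laden macrophages and melanosomes, was at 7.30, 6.01, 1.86, 1.007 and 8.24 scaled FPKM in these and at 0.0866 to 1.08 in i4F. Replicates 3 and 4 were the low ones, and replicate 4 lay within i4F. The pore-forming protein Mpeg1 was at 9.03 to 21.3 against 1.05 to 10.3. Cybb, the catalytic subunit of the phagocyte oxidase, was at 3.05 to 8.55 against 0.573 to 5.65. Both overlapped with i4F, while Ms4a6c, at 9.64 to 16.00 against 0.673 to 6.19, did not.

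Spi1, which encodes PU.1, was at 0.350, 1.21, 1.36, 5.40 and 1.33 scaled FPKM in i4F and at 10.7, 10.1, 9.97, 6.38 and 7.602 in the libraries labelled p53 KO. It rose by 1.95 (SE 0.34, limma adjusted p = 0.00015), with all 5 above i4F. Irf8, a factor of monocytes, dendritic cells and B cells, passed the filter only through the libraries labelled p53 KO, at 1.87 to 4.23 against 0.469 to 5.49. Its difference of 0.75 did not pass (SE 0.32, limma adjusted p = 0.054), and its highest level of all 15 libraries was in i4F replicate 4.

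The 4 class II genes went the other way after scaling. Cd74, the invariant chain that guides class II molecules to the lysosome, was at 59.03, 54.5, 59.1, 402 and 106 scaled FPKM in i4F and at 70.5, 31.2, 44.2, 60.9 and 13.03 in the libraries labelled p53 KO. H2-Aa, the alpha chain of I-A (chr17:34282744-34287823, GRCm38), was at 36.3, 32.5, 38.7, 229 and 67.5 in i4F and at 41.4, 15.9, 19.6, 30.4 and 7.49 in the libraries labelled p53 KO. H2-Ab1, the beta chain of I-A (chr17:34257689-34269419), was at 23.9, 23.5, 24.4, 129 and 39.5 in i4F and then at 21.5, 11.2, 15.9, 19.97 and 6.34. For H2-Ab1 all 5 libraries labelled p53 KO lay below all 5 of i4F, a pattern that 21.1% of all genes tested showed, while the other 3 class II genes overlapped. Replicate 5 labelled p53 KO was the lowest and replicate 1 the highest of its group for Cd74, H2-Aa, H2-Ab1 and H2-Eb1, the beta chain of I-E (chr17:34305867-34316674).

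H2-Aa fell by 1.53 (SE 0.50, limma adjusted p = 0.014), H2-Ab1 by 1.37 (SE 0.42, adjusted p = 0.010), H2-Eb1 by 1.36 (SE 0.47, adjusted p = 0.018) and Cd74 by 1.31 (SE 0.53, adjusted p = 0.039). As deposited the same genes differed by 0.43 (H2-Aa) to 0.68 (Cd74) and did not pass. Without i4F replicate 4, the library with high B cell markers, H2-Aa fell by 1.05 after scaling (adjusted p = 0.027) and the call for Cd74 was lost (-0.80, adjusted p = 0.093). Xist differed between these groups, and with Xist as a covariate none of the 4 calls held, with H2-Aa at -1.06 (adjusted p = 0.096).

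**Figure D2:**
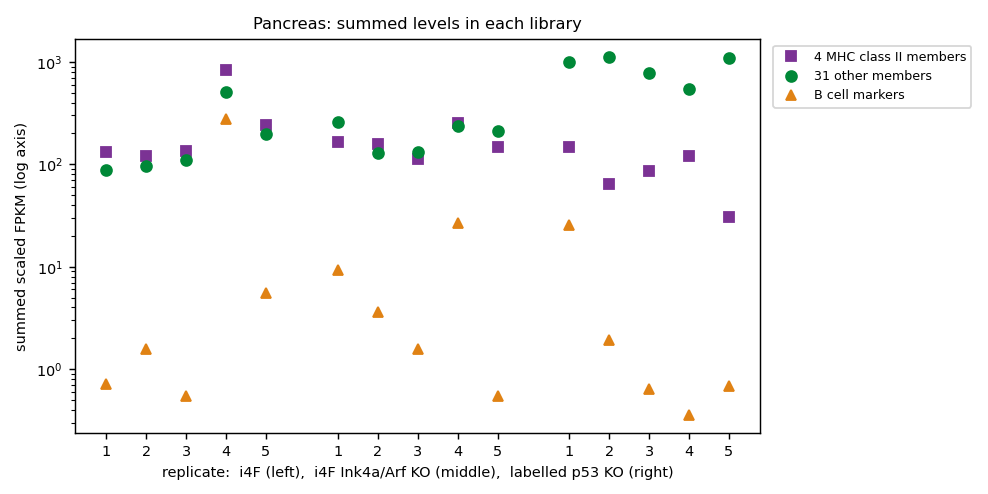
Summed scaled FPKM (log axis) of the 4 class II genes, of the other 31 genes and of the B cell markers in each of the 15 pancreas libraries. The class II sum was at 121 to 839.9 in i4F. The libraries labelled p53 KO were at 30.2 to 148, where the sum of the other 31 lay above it, and the B cell sum was 275 in i4F replicate 4.

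Ratios within a library do not depend on scaling, and those given here were chosen after the values were seen. Cd74 stood at 6.10, 4.72, 4.79, 8.60 and 6.42 times Tyrobp in pancreas i4F, and at 0.807, 0.331, 0.570, 1.13 and 0.143 times in the libraries labelled p53 KO. In i4F replicate 4, where both genes were high, the ratio was the highest of its group. The i4F Ink4a/Arf KO libraries were at 2.81 to 6.10. H2-Aa per Ctss was at 0.352, 0.134, 0.245, 0.605 and 0.0657 in the libraries labelled p53 KO, below the 3.93 to 7.11 of i4F and the 3.43 to 5.31 of i4F Ink4a/Arf KO. The class II genes stayed closer to each other: Cd74 per H2-Aa was at 1.53 to 2.25 in the 15 pancreas libraries and at 1.80 to 2.97 in the 15 kidney libraries. Lgals3 per Tyrobp was at 0.294 to 0.672 in the pancreas labelled p53 KO, above the 0.120 to 0.285 of i4F and the 0.147 to 0.215 of i4F Ink4a/Arf KO. In kidney H2-Aa per Ctss was at 3.82, 4.24, 5.71, 3.44 and 3.20 in i4F p53 KO and at 7.01, 6.46, 7.49, 4.88 and 6.87 in i4F, with 4 of the 5 below every i4F library and replicate 3 among them. The i4F Ink4a/Arf KO kidneys were at 3.59 to 6.68, across both groups. The kidney ratio of Cd74 to Tyrobp overlapped between the genotypes, at 8.72 to 16.3 (i4F), 6.89 to 12.7 (i4F Ink4a/Arf KO) and 6.99 to 17.99 (i4F p53 KO).

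**Figure D3:**
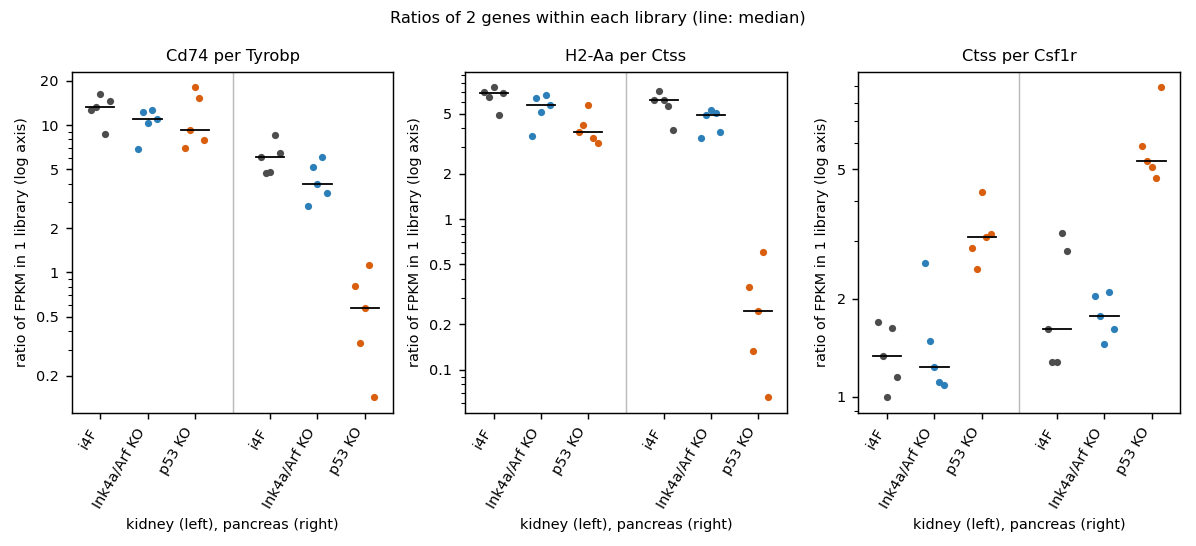
Ratios of FPKM between a pair of genes in each of the 30 libraries (log axes, points are mice, bars medians), kidney left and pancreas right. Cd74 per Tyrobp and H2-Aa per Ctss were low in the pancreas labelled p53 KO (medians 0.570 and 0.245), and Ctss per Csf1r was above i4F in the p53 KO groups of both tissues.

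Against i4F Ink4a/Arf KO, the pancreas labelled p53 KO had higher macrophage genes as well, while no class II gene passed. Of the 19 genes that reached the filter in the other genotypes the 15 macrophage genes rose, beside 24.9% higher and 43.3% lower of the 7733 genes of that kind. Over all genes tested 67.7% passed after scaling (34.7% higher, 33.0% lower) and 93.7% as deposited (91.7% higher, 1.97% lower). Ctss was at 13.4, 8.50, 5.95, 13.6 and 10.2 scaled FPKM in i4F Ink4a/Arf KO, all below the 50.3 to 119 of the libraries labelled p53 KO, and rose by 3.08 (SE 0.47, limma adjusted p = 4.5e-05). Lgals3 rose by 3.08 (SE 0.36) and Cd68 by 2.51 (SE 0.27). Tyrobp, at 12.5 to 27.7, and Spi1, at 1.04 to 3.65, did not overlap either. Of the 19 genes, 15 had all 5 libraries above all 5 of the other group, as did 18.4% of the 7733 genes of that kind. The class II genes differed by -0.92 (H2-Eb1) to -1.10 (H2-Aa), with limma adjusted p from 0.056 to 0.12. Without i4F replicate 4, a library outside this pair of groups that enters the estimate of the spread, all 4 passed, with Cd74 at -0.97 (adjusted p = 0.036). This comparison and the one with i4F share the libraries labelled p53 KO.

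Between i4F Ink4a/Arf KO and i4F pancreas none of the 35 genes passed limma's test, as deposited or scaled, where 0% of the 10781 genes passed. None reached an unadjusted p under 0.05 after scaling either, against 515 of all genes. The median difference was 0.00 over the 35 genes and 0.02 over all genes. The differences ranged from -0.44 for H2-Eb1 (SE 0.47) to 0.54 for Marco, whose level was high in i4F Ink4a/Arf KO replicate 1. Cd68 was at 3.598 to 5.24 scaled FPKM in i4F Ink4a/Arf KO and Csf1r at 4.11 to 6.56, both within the range of i4F.

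**Figure D4:**
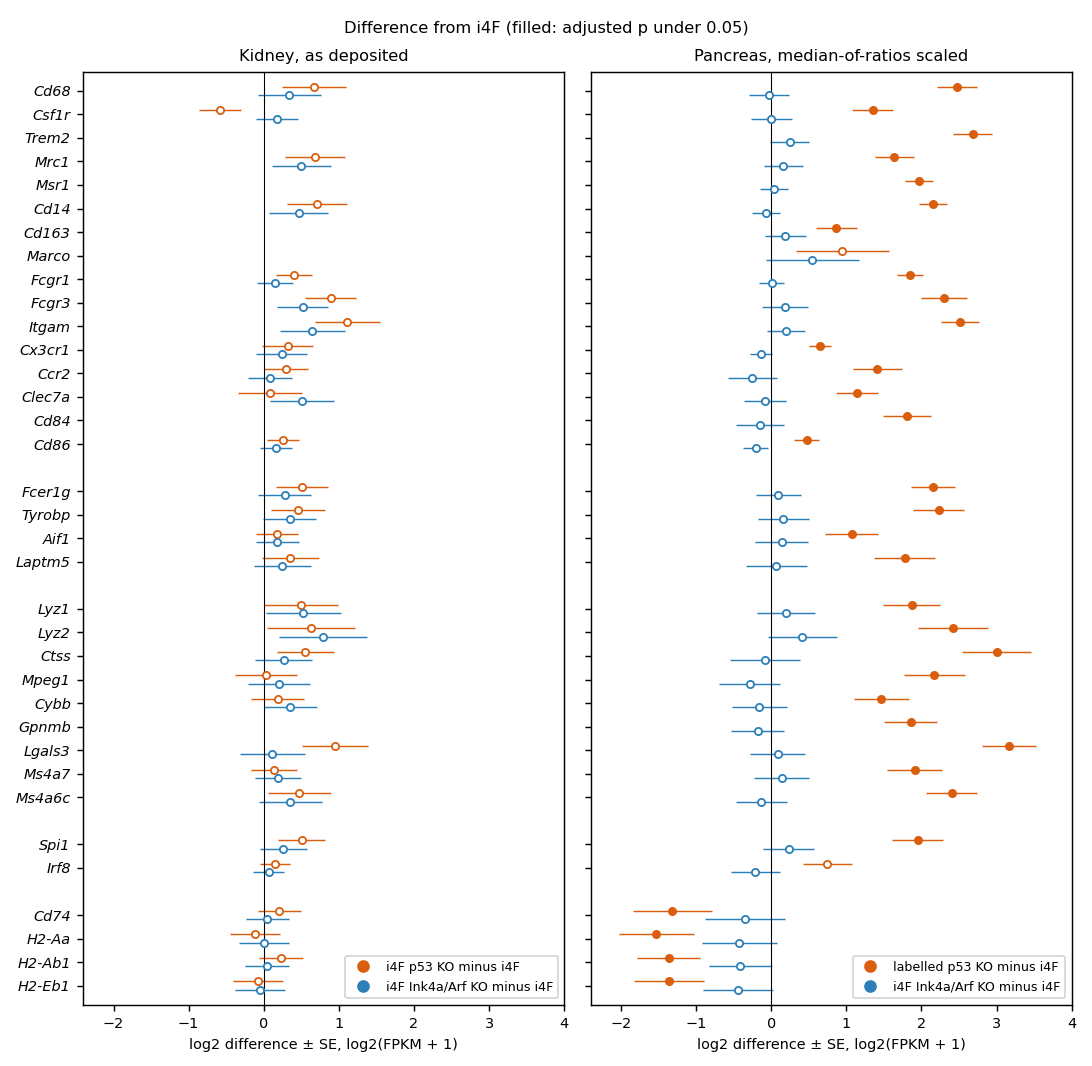
Difference of each knockout from i4F for the 35 genes on the log2(FPKM + 1) scale, with its standard error, in kidney as deposited and in pancreas after scaling; filled points passed the test and absent points were not tested. All kidney points are open, and in the pancreas the points labelled p53 KO reach 3.17 for Lgals3 and -1.53 for H2-Aa.

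In kidney the levels of the 35 genes overlapped between the genotypes, with few exceptions, and no gene passed. Of the 29 tested none was called by limma in i4F p53 KO against i4F, where 0.257% of 12431 genes passed, 0.0885% higher and 0.169% lower (0.499% after scaling, with none of the 29 either). An unadjusted p under 0.05 was reached by 3 of the 29, against 1641 of the 12431 genes. Trem2, Msr1, Cd163, Marco, Cd84 and Gpnmb were too low to be tested, and Mrc1, Fcgr1, Itgam and Cd86 passed the filter only through i4F p53 KO. The 25 that reached it in the other genotypes had a median difference of 0.32, against 0.02 over the 12074 genes of that kind.

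Fcgr3 was at 3.57, 3.26, 2.50, 4.35 and 3.09 FPKM in kidney i4F and at 8.60, 8.88, 5.46, 7.87 and 5.05 in i4F p53 KO. It was the only one of the 35 with all 5 libraries above all 5 of i4F, as 0.845% of all genes were. The difference was 0.89 (SE 0.34, limma adjusted p = 0.27), and it passed without i4F Ink4a/Arf KO replicate 1, which enters the shared estimate of the spread (adjusted p = 0.035). Itgam was at 0.591, 0.525, 0.314, 1.40 and 0.671 in i4F and at 4.93, 3.54, 1.74, 3.11 and 0.965 in i4F p53 KO, with replicate 5 among i4F (1.11, SE 0.43, limma adjusted p = 0.28). Csf1r was at 11.7, 15.6, 15.1, 18.4 and 16.3 FPKM in i4F and at 13.6, 14.98, 7.72, 12.5 and 4.45 in i4F p53 KO, with a difference of -0.59 (SE 0.28, limma adjusted p = 0.39). Replicates 3 and 5 of i4F p53 KO were the low ones. Ctss was at 15.1 to 29.9 in i4F and at 38.8, 37.01, 32.9, 38.5 and 14.04 in i4F p53 KO, where replicate 5 was the low one (0.55, SE 0.38, limma adjusted p = 0.55). Within libraries the ratio of Ctss to Csf1r did not overlap between these groups: 2.86, 2.47, 4.26, 3.08 and 3.15 in i4F p53 KO against 1.69, 1.33, 0.995, 1.63 and 1.15 in i4F. The i4F Ink4a/Arf KO kidneys were at 1.08 to 1.48, and replicate 1 at 2.57. In the pancreas the same ratio was at 4.70 to 8.91 in the libraries labelled p53 KO, above the 1.27 to 3.18 of i4F and the 1.45 to 2.09 of i4F Ink4a/Arf KO.

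Lyz2 was at 22.4, 22.1, 16.3, 42.4 and 23.8 FPKM in kidney i4F and at 65.3, 80.1, 31.4, 26.2 and 17.9 in i4F p53 KO, with replicates 1 and 2 high and the rest among i4F. Lgals3 was at 108, 31.9, 25.02, 107 and 55.6 in i4F p53 KO, where replicates 1 and 4 were high, against 18.5 to 48.7 in i4F (0.95, SE 0.44, limma adjusted p = 0.37). Cd74, the most abundant of the 35 in kidney, was at 275, 242, 236, 276 and 265 FPKM in i4F and at 325, 323, 448, 372 and 134 in i4F p53 KO. Replicate 5 held the lowest and replicates 1 to 4 the higher levels, and the difference of 0.20 did not pass (SE 0.29, limma adjusted p = 0.80). H2-Aa was at 113 to 146 in i4F and at 148, 157, 188, 133 and 44.98 in i4F p53 KO, again with replicate 5 lowest. Kidney i4F p53 KO replicate 5 was the lowest of all 15 libraries for 15 of the 35 genes. Of 4 neutrophil genes tested in the same comparison 3 rose, where 0.0885% of all genes did. S100a8, an alarmin of neutrophils and monocytes, was at 32.97 to 92.1 FPKM against 7.04 to 14.1 and rose by 2.43 (SE 0.37, limma adjusted p = 0.013). Transcripts of pancreatic acini were present in some kidneys, with Clps above 100 FPKM in i4F p53 KO replicates 2, 3 and 4 and i4F replicate 5. The part of either in the values of the 35 genes was not tested.

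**Figure D5:**
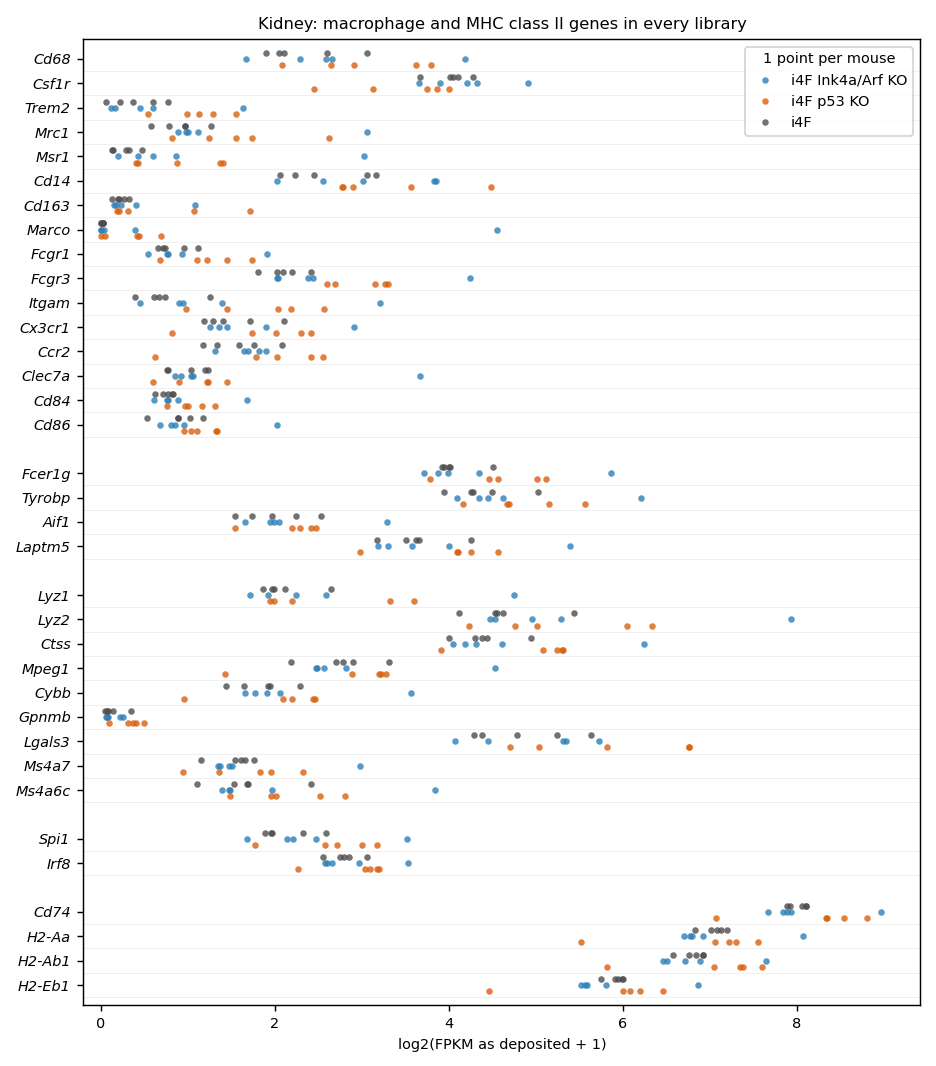
Level of the 35 genes in the kidney as deposited on the log2(FPKM + 1) axis, with 1 point for each of the 15 libraries, coloured by genotype and grouped by role. The i4F p53 KO points overlap with i4F in all genes except Fcgr3, and the point far to the right of its group in most genes is i4F Ink4a/Arf KO replicate 1.

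Between i4F Ink4a/Arf KO and i4F kidney none of the 29 genes passed limma's test, where 0% of 12431 genes passed, and none had an unadjusted p under 0.05, against 398 of all genes. The median difference was 0.25, with 28 of 29 above 0, and without replicate 1 of i4F Ink4a/Arf KO it was -0.05, with 9 of 29 above 0 (-0.03 and 12 after scaling). In that replicate Lyz2 was at 244 FPKM, and at 21.3 to 38.1 in the other 4. Marco was at 22.5 and at most 0.615 in every other kidney, Clec7a at 11.8 against at most 1.73, and Msr1 at 7.13 against at most 1.66. Timd4, a receptor for dying cells on resident macrophages, was at 5.08 there and at most 0.374 elsewhere, and the T cell gene Cd3e at 4.23 against at most 0.841. Xist was at 24.04 FPKM in this library and at most 0.0259 in the other i4F Ink4a/Arf KO kidneys. Class II genes were high in it too, with Cd74 at 502 FPKM against 204 to 244 in the other 4. Between i4F p53 KO and i4F Ink4a/Arf KO kidney none of the 29 passed (0.265% of all genes, 0.539% after scaling), and Csf1r, with a difference of -0.76 (SE 0.28, limma adjusted p = 0.19), was the only one at an unadjusted p under 0.05.

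The difference between the tissues was tested directly, as the p53 KO difference from i4F in pancreas minus that in kidney, over the 10132 genes tested in both. After scaling 20 of the 29 genes passed, 18 higher and 2 lower, where 47.2% of all genes passed (24.2% higher, 23% lower). As deposited 25 passed, all higher in the pancreas, where 91.9% of all genes passed (90.8% higher, 1.16% lower). Of the 18 genes that reached the filter outside the p53 KO groups in both tissues, 12 passed higher and 2 lower after scaling. The share over all genes of that kind was not computed, so this count is given as a description. The shares above also cover genes that reached the filter only through a p53 KO group. The scaled differences were 2.48 for Ctss (SE 0.60, limma adjusted p = 0.0015), 2.25 for Lgals3 (SE 0.55) and 1.97 for Csf1r (SE 0.38, limma adjusted p = 0.00015), whose kidney difference from i4F was negative. H2-Ab1 was at -1.57 (SE 0.52, limma adjusted p = 0.015) and Cd74 at -1.49 (SE 0.62, limma adjusted p = 0.0498). The call for Cd74 was lost in 23 of 33 alternatives, and that for H2-Ab1 in none. Mrc1, Cx3cr1, Clec7a, Cd86, Aif1, Lyz1, Irf8, H2-Aa and H2-Eb1 did not pass. Levels were not compared between tissues, since each table was normalized separately.

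Other macrophage genes in the pancreas labelled p53 KO were higher as well. Of 10 further markers that reached the filter outside that group 9 rose and none fell after scaling, with a median of 1.54, beside 26.3% higher, 40.2% lower and a median of -0.13 for the genes of that kind. Adgre1, the F4/80 antigen, was at 6.15 to 12.2 scaled FPKM against 1.25 to 5.97 in i4F, and rose by 1.53 (SE 0.28). C1qa, a complement chain made by macrophages, rose by 1.85 (SE 0.31). Of 4 genes carried by all leukocytes that reached the filter outside that group, 3 rose and 1 fell. Ptprc (CD45), another such gene, passed the filter only through the libraries labelled p53 KO, which favours a difference. Its values are given as a description: i4F replicate 4, at 7.17, lay above all libraries labelled p53 KO, at 2.37 to 5.14. Of 12 lysosome genes, all of them reaching the filter outside that group, 9 rose, among them Ctsz by 1.60. Of the 3 other myeloid transcription factors that reached it there Cebpb rose by 1.44 and the other 2 fell. Csf1, a ligand of Csf1r, rose by 0.90 (SE 0.14). Il34, the other ligand, differed by 0.99 (SE 0.23). Il34, too, passed the filter only through the group labelled p53 KO, so its difference is given as a description.

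Of 6 other genes of the class II pathway that reached the filter outside the group labelled p53 KO, 3 rose and 1 fell after scaling, where 26.3% of all such genes rose and 40.2% fell. Lgmn, an endopeptidase of the lysosome, rose by 3.01, from 3.47 to 13.8 scaled FPKM to 37.1 to 64.6. H2-DMa and H2-DMb1, which load peptides onto class II molecules, differed by -0.14 (SE 0.33) and -0.25 (SE 0.28) and did not pass. Ciita, the coactivator on which class II transcription depends, was too low to be tested, at 0.243 to 2.07 FPKM as deposited in the libraries labelled p53 KO and 0.0772 to 1.80 in i4F, with the highest i4F value in replicate 4. Of the 3 dendritic cell genes that reached the filter outside the group labelled p53 KO none rose and Zbtb46 fell by 0.56, while their median was 0.31. Itgax, also tested, passed the filter only through that group and did not rise by the test. None of the T and NK cell markers and 1 of the 10 B cell markers reached the filter in the pancreas. The summed B cell level was at 0.360 to 25.8 scaled FPKM in the libraries labelled p53 KO against 0.551 to 275 in i4F. Neutrophil markers were uneven, with S100a8 at 686, 50.1, 14.1, 12.4 and 55.3 scaled FPKM in the libraries labelled p53 KO and at 136 in i4F replicate 4. The part of B cells and neutrophils in the differences of the 35 genes was not tested beyond leaving out single libraries.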

How the data were processed

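Stranded poly(A) libraries of 15 kidneys and 15 pancreases were sequenced, per the labels. The deposited unit is FPKM per gene, 1 table for each tissue, made by the authors. Per the submitters' processing notes FastQC, TopHat2 2.0.10, Bowtie 1.0.0, SAMtools 0.1.19, Cufflinks 2.2.1 and the mouse build mm10 were used, with no roles given. Whether values were scaled between libraries is not given in the sources used here. Low values rise in steps whose size gives a relative depth, which spanned 1.26-fold in kidney and 1.83-fold in pancreas. Replicates are separate mice by the labels.

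The 35 genes, the other gene lists and the tests were chosen with earlier results of these data known. Named were all 35 genes, a few fixed others (Ptprc, Adgre1, C1qa, Csf1, Il34, Ccl2, Ciita, Trp53, S100a8, Clps and the cassette factors) and up to 3 called genes with the smallest adjusted p of every other list. The remaining genes named, the ratios and the Ctss promoter were chosen after their values were seen. limma 3.58.1 (R 4.3.3, eBayes with trend) was fitted to log2(FPKM + 1) over the 15 libraries of each tissue, for genes reaching 1 FPKM as deposited in at least 5 of them. Calls are two-sided, at an adjusted p (Benjamini-Hochberg, over all genes tested) under 0.05. The difference between tissues used all 30 libraries. Each fit was repeated after median-of-ratios scaling over the genes above 0 in every library (15324 in kidney, 13165 in pancreas). The fits were tested on simulated data. Alternatives were 0.1 as pseudocount, no filter, a filter of 5 FPKM, quantile normalization, array weights, replicate number as a block, only the groups compared, Xist as a covariate and leaving out each library. A filter of 1 on the scaled values was added after the data were seen. Gene positions come from GENCODE and promoters from RefSeq. Promoters of Csf1r, Cd14, Cd74, Cd86, H2-Ab1, Tyrobp, Spi1 and Msr1 are not shown. Clec7a is annotated as a polymorphic pseudogene.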

Additional observations from a re-analysis of the deposited data

Results flagged for a closer look

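Within groups of 5, the gap between an extreme library and its neighbour, divided by the range, passed Dixon's 95% value of 0.71 for 61 of 210 combinations of gene and group. For normally distributed values chance passes about 1 in 20. Whether these FPKM, which were not on a log scale, are so distributed was not tested, so that rate may not apply. The genes share libraries, so these are not independent, and all counts here are on the values as deposited. Kidney i4F Ink4a/Arf KO replicate 1 was set apart on the high side for 29 of the 35 genes, and pancreas i4F replicate 4 for 20. Pancreas replicate 1 labelled p53 KO was set apart on the high side for 5 genes, kidney i4F replicate 4 for 4 and pancreas i4F Ink4a/Arf KO replicate 1 for 1. In the pancreas library labelled p53 KO these were Marco, Cd74, H2-Aa, H2-Ab1 and H2-Eb1, and after scaling only Marco was set apart there. Kidney i4F p53 KO replicate 5 was set apart on the low side for 2 genes.

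The p53 KO difference from i4F was not the same in both tissues for 20 of 29 genes after scaling, by the interaction test. Of these, 18 were more positive in the pancreas and 2 less, where 47.2% of all genes passed (24.2% higher, 23% lower). Of the 18 genes that reached 1 FPKM in 5 libraries outside the p53 KO groups in both tissues, 12 were more positive and 2 less. The share over all genes of that kind was not computed.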

How the results depend on the processing

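In kidney, where no gene of the 35 passed, some alternatives gave calls. For i4F p53 KO against i4F as deposited, array weights gave 5 genes (13.8% of all genes tested were called) and Xist as a covariate 2 (1.96%), and leaving out single libraries gave 0 to 1 (Fcgr3, without i4F Ink4a/Arf KO replicate 1, 0.276%). After scaling the same comparison gave 2 with array weights (4.09%), 1 with only the groups compared (0.129%), 2 with Xist as a covariate (4.09%), and 0 to 1 on leaving out single libraries (0.592% without i4F Ink4a/Arf KO replicate 1). For i4F p53 KO against i4F Ink4a/Arf KO, array weights gave 10 genes as deposited (26.7%) and 4 after scaling (12.2%), and leaving out single libraries gave 0 to 1 after scaling (0.316% without i4F Ink4a/Arf KO replicate 1, 3.94% without i4F p53 KO replicate 2). The cause was not tested.

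The direction of the class II genes in the pancreas labelled p53 KO against i4F depends on the scaling. As deposited all 4 differences were above 0, and with median-of-ratios scaling they were -1.31 for Cd74, -1.53 for H2-Aa, -1.37 for H2-Ab1 and -1.36 for H2-Eb1. With quantile normalization H2-Aa was at -1.40, H2-Ab1 at -1.28 and H2-Eb1 at -1.34, and the value for Cd74 is not given here. Of 24 alternatives to the scaled fit, the call was lost in 9 for Cd74, in 2 for H2-Eb1 and in 1 each for H2-Aa and H2-Ab1.

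Same-numbered replicates did not regularly deviate together. In kidney i4F p53 KO and i4F the correlation of their deviations was over 0.1 in 3 of 5 pairs, from -0.0789 to 0.291. In the other comparisons it was over 0.1 in 0 to 2 of 5 pairs, from -0.384 to 0.190. The numbers were therefore not taken to pair the mice. With the replicate number as a block, 33 of the 35 genes passed after scaling in the pancreas labelled p53 KO against i4F, where 63.1% of all genes did, and 0 in kidney. Of the 35, 16 passed the filter only through the libraries labelled p53 KO.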

Other observations

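Genes of macrophage activation and repair changed in the pancreas labelled p53 KO as well. Of the 4 that reached 1 FPKM in at least 5 libraries of the other genotypes, 3 rose and 1 fell against i4F after scaling, where 26.3% of such genes rose and 40.2% fell. Arg1, the arginase of repair macrophages, is not among these 4. It was at 40.5, 27.4, 21.2, 13.6 and 72.6 scaled FPKM in the libraries labelled p53 KO and at 0.125 to 0.759 in i4F. Arg1 passed the filter on low levels only through the libraries labelled p53 KO, which favours a difference. Its difference of 4.52 (limma, log2 scale) is given as a description. Retnla, another gene that IL4 induces in macrophages, was at 0.229 to 2.51 against 10.7 to 28.9, and fell by 3.21. Plin2, which coats lipid droplets, rose by 2.71.

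Ccl2, an attractant of monocytes, was at 10.7, 20.5, 26.1, 16.2 and 24.6 scaled FPKM against 0.260 to 1.77 in i4F. It differed by 3.43 (SE 0.29), and Ccl7, another attractant, by 3.02. Like Arg1, both passed the filter on low levels only through the libraries labelled p53 KO, which favours a difference. Their differences are given as a description. Of 11 class I presentation genes, all of them reaching the filter outside the group labelled p53 KO, 4 rose and 1 fell after scaling. Of all genes of that kind 26.3% rose and 40.2% fell. Tapbp, which helps to load class I molecules, rose by 1.05, while Psmb10, a subunit of the immunoproteasome, fell by 2.58, from 68.4 to 157 scaled FPKM to 6.05 to 41.1.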
